A study of Mus musculus with 8 samples.

Results

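The let-7 family is a group of microRNAs (miRNAs) that share the same seed, and its 9 mature 5p strands were examined in mouse articular chondrocytes: let-7a, let-7b, let-7c, let-7d, let-7e, let-7f, let-7g, let-7i and miR-98. The members were chosen by name, as the rows of the 5p arms, and all 9 were found among the 1966 mature miRNA names of the deposited table. The libraries came from primary articular chondrocytes, the cells of joint cartilage, which were isolated from femoral head cartilage of wild-type mice aged 3 weeks. Vehicle (n = 4) was compared with IL-1β at 1 ng/ml for 24 h (n = 4), to look for miRNAs that respond to this proinflammatory cytokine. Neither the labels nor the methods say whether the 4 libraries of a group came from separate animals or cultures, so that the p-values below measure the spread between these libraries, which may be technical.

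A miRNA is released from the 5p or the 3p arm of its hairpin precursor, and the seed, bases 2 to 8, pairs with target mRNAs and lowers their translation and stability. The let-7 miRNAs accumulate as cells leave the embryonic state, and the RNA-binding protein LIN28 blocks the processing of their precursors. They repress growth-promoting genes such as Hmga2 and members of the Ras family, they are known to target Il6, and in growth plate cartilage they support the proliferation of chondrocytes.

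The mature sequences are shown because they decide which members a read can be told apart from. They were taken from RefSeq (GRCm38.p6), where all 9 members matched by name, and the capitals mark the seed. The prefix mmu (mouse) of the names is left out in the rest of the text.
mmu-let-7a-5p: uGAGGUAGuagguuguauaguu
mmu-let-7b-5p: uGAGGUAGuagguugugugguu
mmu-let-7c-5p: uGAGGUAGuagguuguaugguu
mmu-let-7d-5p: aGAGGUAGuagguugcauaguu
mmu-let-7e-5p: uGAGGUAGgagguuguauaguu
mmu-let-7f-5p: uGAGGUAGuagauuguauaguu
mmu-let-7g-5p: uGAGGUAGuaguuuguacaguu
mmu-let-7i-5p: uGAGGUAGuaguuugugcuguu
mmu-miR-98-5p: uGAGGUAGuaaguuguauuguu

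All 9 strands were 22 nt long and had the seed GAGGUAG, so that the members differed outside it. Against let-7a-5p, with positions counted from 1 at the 5′ end, let-7c-5p carried A19G, let-7e-5p U9G and let-7f-5p G12A. let-7b-5p carried A17G and A19G, let-7d-5p U1A and U16C, let-7g-5p G12U and U18C, and miR-98-5p G11A and A19U. The member farthest from let-7a-5p was let-7i-5p, with G12U, A17G, U18C and A19U. Of the 36 pairs of members, 4 differed at 1 base and 14 at no more than 2 bases, with a maximum of 6. How the study treated reads that fit several members was not given in the sources used here, so the split of counts between close members is uncertain.

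The 9 strands are encoded by 12 hairpins, of which 6 belong to members with a single locus (coordinates in GRCm38.p6). On chromosome 13, minus strand, the hairpins of let-7a-1 (48538179 to 48538272), let-7f-1 (48537829 to 48537917) and let-7d (48536012 to 48536114) lay in exons of the long non-coding RNA gene 6720427I07Rik, with gaps of 262 and 1715 bases between neighbours. On chromosome 15, plus strand, let-7c-2 (85706603 to 85706697) and let-7b (85707319 to 85707403) lay 622 bases apart in exons of the non-coding Lncppara. On chromosome X, plus strand, let-7f-2 (151912346 to 151912428) and miR-98 (151913214 to 151913321) lay 786 bases apart in an intron of Huwe1, a gene for a ubiquitin ligase. The remaining hairpins were let-7a-2 (chromosome 9, 41536716 to 41536811, plus strand, intronic in the non-coding 3110039I08Rik and Gm49317), let-7c-1 (chromosome 16, 77599657 to 77599750, plus strand, intronic in Mir99ahg and, on the opposite strand, Gm11146), let-7e (chromosome 17, 17830352 to 17830444, plus strand, intronic in Spaca6), let-7g (chromosome 9, 106178840 to 106178927, plus strand, intronic in Wdr82) and let-7i (chromosome 10, 122985640 to 122985724, minus strand, exonic in the transcribed pseudogene D630033A02Rik). The counts of let-7a-5p, let-7c-5p and let-7f-5p cannot be assigned to one of their loci. The table listed a length of 44 nt for let-7a-5p and let-7f-5p, the sum over their loci, but of 22 nt for let-7c-5p, which also has 2 hairpins.

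Library totals ranged from 616475 to 1568367 counts, so that 1 count corresponded to between 0.638 and 1.62 CPM, the unit of counts relative to the library total. Values per library are normalized CPM, in which each total was first multiplied by its TMM factor (trimmed mean of M values). IL-1β replicate 4 stood apart from the other 7 libraries: over the 195 miRNAs that averaged 50 counts or more, its log2 deviations from the mean of its group's other 3 libraries had an SD of 0.40, against 0.15 to 0.23. The cartilage markers miR-140 and miR-455 were abundant, with all 4 arms tested, 0 called, and a sum of 153547 to 168966 normalized CPM with vehicle and 132602 to 155815 with IL-1β. Markers of other cells were near or at 0. All 3 muscle markers and the liver marker miR-122-5p had 0 counts, as did 4 of 5 haematopoietic, 1 of 2 endothelial and 2 of 6 epithelial markers. The summed level did not exceed 2.92 normalized CPM for the haematopoietic and endothelial lists. The epithelial list summed to 0 to 2 counts with vehicle and 1 to 7 counts with IL-1β, at most 1.56 and 10.2 normalized CPM. The part of these markers in the values of the family was not tested. In bulk samples like these, fewer cells of a type and less RNA per cell cannot be told apart.

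Every guide strand was detected above 1 CPM in all 8 libraries, with 67 counts (miR-98-5p) to 23019 counts (let-7c-5p) in a single library. let-7c-5p was the most abundant member, at 14231, 15362, 13509 and 14079 normalized CPM in vehicle replicates 1 to 4 and 14366, 14064, 14246 and 15110 in IL-1β replicates 1 to 4. Averaged over the 8 libraries, it ranked 14th of all miRNAs at 14371 normalized CPM. Next came let-7i-5p (7264), let-7b-5p (5569), let-7a-5p (5117), let-7f-5p (3985), let-7d-5p (1806), let-7e-5p (1004), let-7g-5p (937) and miR-98-5p (107). As all 9 strands have the same length, this order of levels is also the order per length, although ligation and amplification favor some sequences over others. For 3 neighbours in this order the ranges over the libraries overlapped: let-7b-5p and let-7a-5p, let-7a-5p and let-7f-5p, and let-7e-5p and let-7g-5p. Within each library let-7b-5p still exceeded let-7a-5p, and let-7a-5p exceeded let-7f-5p, in 8 of 8, whereas let-7e-5p exceeded let-7g-5p in 7 of 8.

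**Figure D1:**
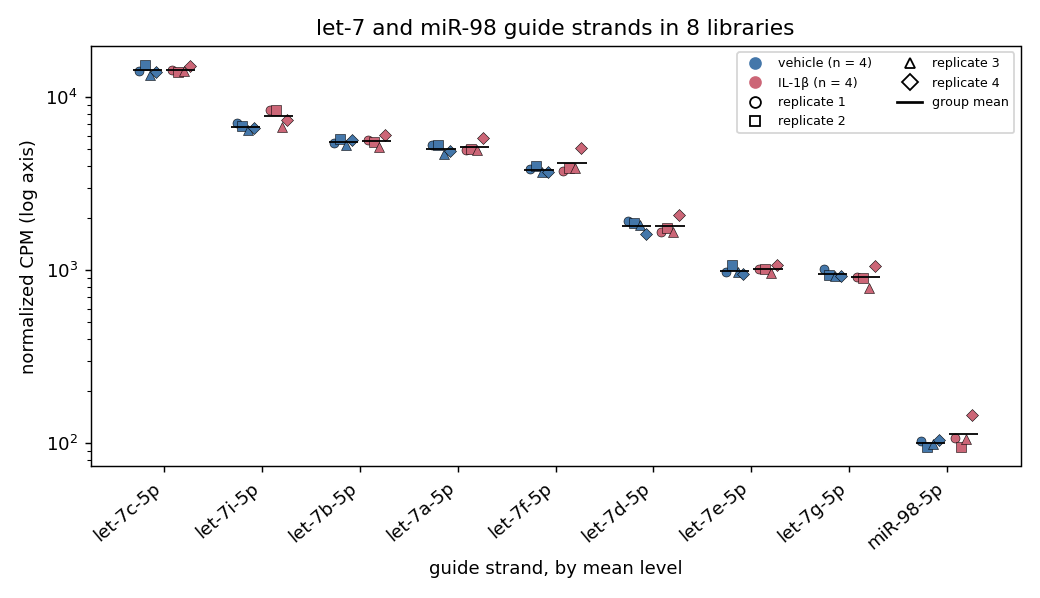
Normalized CPM (log axis) of each guide strand, ordered by mean level, in 4 vehicle (blue) and 4 IL-1β (red) libraries, with marker shapes for replicates and black lines for group means. Levels spanned from 94.8 (miR-98-5p) to 15362 (let-7c-5p), and the vehicle and IL-1β points of each member overlapped.

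To test whether IL-1β changed the family, each member was compared between groups in a fit across all 564 tested miRNAs. None of the 9 guide strands was called, by the quasi-likelihood test of edgeR or by DESeq2 (a call needed an adjusted p, after Benjamini and Hochberg, under 0.05 and an absolute log2 fold change over 0.3), against 11 of 564 or 1.95% of all tested miRNAs. At an unadjusted p under 0.05 the count was 1 of 9, let-7i-5p, beside 63 of the 564 tested. Log2 fold changes (log2FC, IL-1β over vehicle) ran from -0.05 (let-7g-5p) to 0.20 (let-7i-5p), with a median of 0.03, beside 0.01 over all tested miRNAs. The log2FC of let-7g-5p was -0.13 without IL-1β replicate 4 and -0.0067 without IL-1β replicate 3. In no member did the groups separate, whereas 7.62% of the tested miRNAs had groups that did not overlap. For 6 members the 95% interval of the log2 fold change lay within ±0.3, and for let-7f-5p, let-7i-5p and miR-98-5p its upper bound reached 0.32, 0.38 and 0.46.

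**Figure D2:**
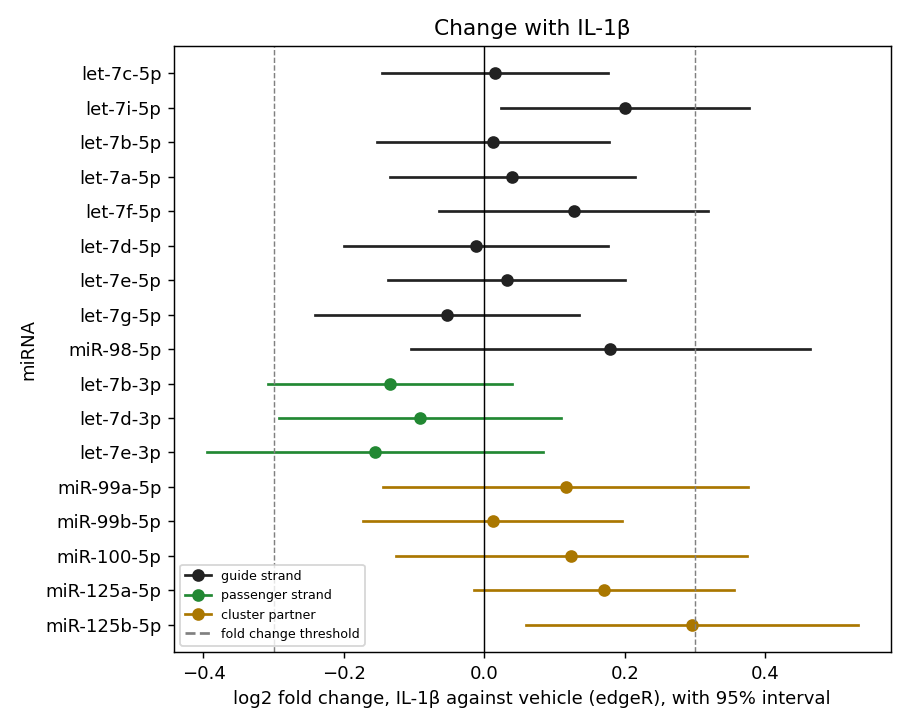
Log2 fold change of IL-1β against vehicle from edgeR (points) with 95% intervals (bars) for the 9 guide strands, the 3 most abundant passenger strands and 5 cluster partners. The intervals of 8 of the 9 guide strands include 0, that of let-7i-5p runs from 0.02 to 0.38, and dashed lines mark ±0.3.

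The member with the lowest p was let-7i-5p. It stood at 7068, 6820, 6493 and 6664 normalized CPM with vehicle and at 8443, 8442, 6776 and 7407 with IL-1β. IL-1β replicates 1 and 2 were clearly the highest, and replicate 3 fell among the vehicle libraries. The vehicle mean was 6761 ± 244 and the IL-1β mean 7767 ± 822 (SD, n = 4), which gave a log2FC of 0.20 (SE 0.0858, 95% interval 0.02 to 0.38, edgeR adjusted p = 0.336). Without IL-1β replicate 4, the adjusted p from edgeR was 0.0466 at a log2 fold change of 0.23, which remained under the threshold of 0.3. Without IL-1β replicate 2 the log2FC was 0.13 (edgeR adjusted p = 0.657), and the 15 alternatives gave adjusted p-values between 0.0466 and 0.683.

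The members with the next largest log2 fold changes were miR-98-5p and let-7f-5p, which are encoded next to each other within Huwe1 through let-7f-2. miR-98-5p was at 103, 94.8, 99.3 and 104 normalized CPM with vehicle and at 107, 95.2, 105 and 147 with IL-1β. let-7f-5p was at 3867, 4007, 3683 and 3678 with vehicle and at 3762, 3916, 3894 and 5068 with IL-1β. In both, IL-1β replicates 1 to 3 lay within or close to the vehicle range and replicate 4 lay far above it. The log2FC was 0.18 for miR-98-5p (SE 0.138, edgeR adjusted p = 0.744) and 0.13 for let-7f-5p (SE 0.0927, edgeR adjusted p = 0.735). Without IL-1β replicate 4, the IL-1β mean was 103 ± 6.40 for miR-98-5p and 3857 ± 83.0 for let-7f-5p (SD, n = 3), beside vehicle means of 100.3 ± 4.27 and 3809 ± 159 (SD, n = 4), and the log2 fold changes were 0.03 and 0.02.

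The other 6 members differed by less than the spread between libraries. let-7a-5p was at 5278, 5298, 4691 and 4918 normalized CPM with vehicle and at 4930, 4999, 4967 and 5853 with IL-1β, again with replicate 4 on its own. let-7d-5p was at 1938, 1883, 1819 and 1612 with vehicle and at 1668, 1761, 1666 and 2099 with IL-1β. The groups of let-7d-5p overlapped, with IL-1β replicate 4 the highest and vehicle replicate 4 the lowest library. let-7b-5p averaged 5547 ± 186 and 5592 ± 348, let-7c-5p 14295 ± 776 and 14446 ± 459, let-7e-5p 993 ± 51.7 and 1016 ± 47.8, and let-7g-5p 954 ± 46.3 and 919 ± 111 normalized CPM with vehicle and IL-1β (SD, n = 4). Their edgeR adjusted p-values ran from 0.871 to 0.992.

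Because members with the same seed can act on the same targets, their counts were also summed. The family total was 39950, 41205, 37526 and 38596 normalized CPM in the vehicle libraries and 40867, 40682, 38599 and 43849 in the IL-1β libraries. The groups overlapped, and IL-1β replicate 4 was the highest library on this scale. The vehicle mean was 39319 ± 1601 and the IL-1β mean 40999 ± 2160 (SD, n = 4), a ratio of 1.04 that was within the spread between libraries. As a share of all counts the family took 3.97% ± 0.117 and 4.06% ± 0.181 (SD, n = 4), and on that scale IL-1β replicates 2 (4.21%) and 1 (4.14%) were above replicate 4 (4.09%). Without IL-1β replicate 4 the IL-1β mean was 40049 ± 1259 (SD, n = 3).

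**Figure D3:**
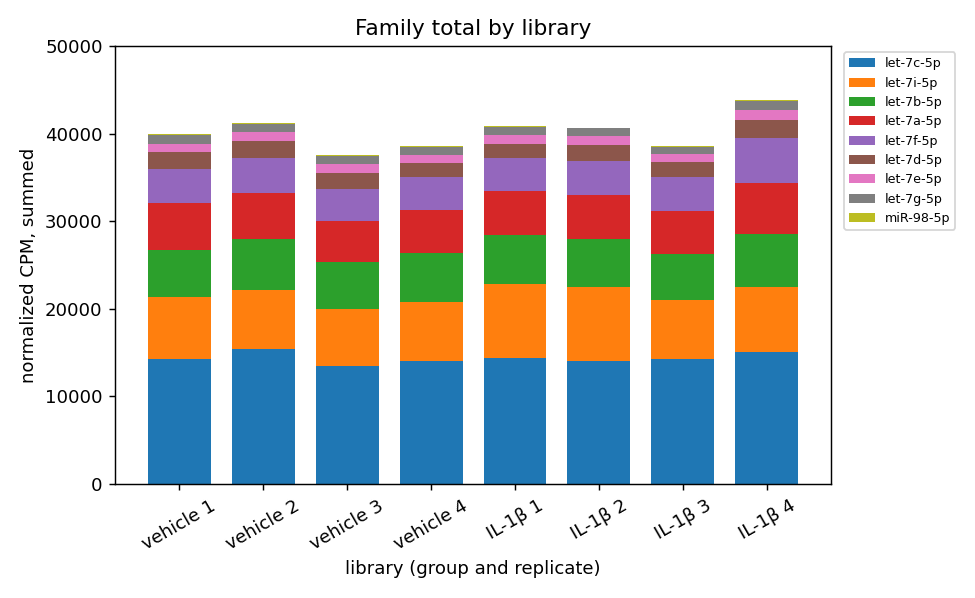
Summed normalized CPM of the 9 guide strands in each library, stacked by member. Totals lie between 37526 (vehicle replicate 3) and 43849 (IL-1β replicate 4), and let-7c-5p forms the largest part of each bar.

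The share of each member in the total overlapped between the groups, and the shares were not tested. In vehicle libraries let-7c-5p made up 36.3% ± 0.715 of the family counts, and in IL-1β libraries 35.3% ± 1.13 (SD, n = 4). let-7i-5p made up 17.2% ± 0.475 and 18.96% ± 2.03, and its shares in IL-1β replicates 1 and 2, 20.7% and 20.8%, were above the other 6 libraries at 16.6% to 17.7%. let-7f-5p made up 11.6% in IL-1β replicate 4 and 9.21% to 10.1% in the other 7 libraries. let-7b-5p, let-7a-5p and let-7f-5p followed at 14.1%, 12.8% and 9.69% of the vehicle total, and miR-98-5p made up 0.256%.

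In normalized CPM, IL-1β replicate 4 was the highest of the 8 libraries for 7 of the 9 guide strands, all but let-7c-5p and let-7i-5p. With library totals alone it was the highest for 3 of 9, let-7a-5p, let-7f-5p and miR-98-5p, since its TMM factor, 0.932 against 0.985 to 1.04 in the others, raised all of its values. Its log2 deviation from the mean of the other 3 IL-1β libraries was 0.51 for miR-98-5p, 0.39 for let-7f-5p, 0.31 for let-7d-5p, 0.29 for let-7g-5p and 0.24 for let-7a-5p. It was 0.15 for let-7b-5p, 0.11 for let-7e-5p, 0.09 for let-7c-5p and -0.08 for let-7i-5p, so that strands one base apart deviated by unlike amounts. Base composition differed among the members. miR-98-5p and let-7f-5p have 7 G or C bases, let-7a-5p and let-7g-5p have 8, let-7c-5p, let-7d-5p, let-7e-5p and let-7i-5p have 9 and let-7b-5p has 10. In this library the deviations and the number of G and C bases had a Spearman rho of -0.71 over the 9 members, which share most of their bases, against -0.36 to 0.61 in the other 7 libraries. The percentage of G and C had a rho of -0.36 with the deviations there over 180 miRNAs with a sequence, against -0.28 to 0.31 in the other 7 libraries. The values of IL-1β replicates 1 to 3 are not independent of replicate 4, which is part of the mean they were measured against. In the vehicle libraries alone the ranges were -0.36 to 0.24 over the members and -0.28 to 0.18 over the 180 miRNAs. The 5 miRNAs of the miR-99/100 and miR-125 families listed as partners of let-7 clusters have 11 to 14 G or C bases. In IL-1β replicate 4 they deviated upward by 0.35 to 0.64, more than most members. The 3p arms let-7d-3p, let-7b-3p, let-7e-3p and let-7i-3p have 11 to 13 such bases and deviated there by -0.43, -0.17, -0.02 and 0.09. The part of base composition was not tested. With library totals alone, let-7f-5p was at 4723 CPM there and at 3726 to 4056 in the others, and let-7d-5p was at 1956 there and at 1965 in vehicle replicate 1.

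**Figure D4:**
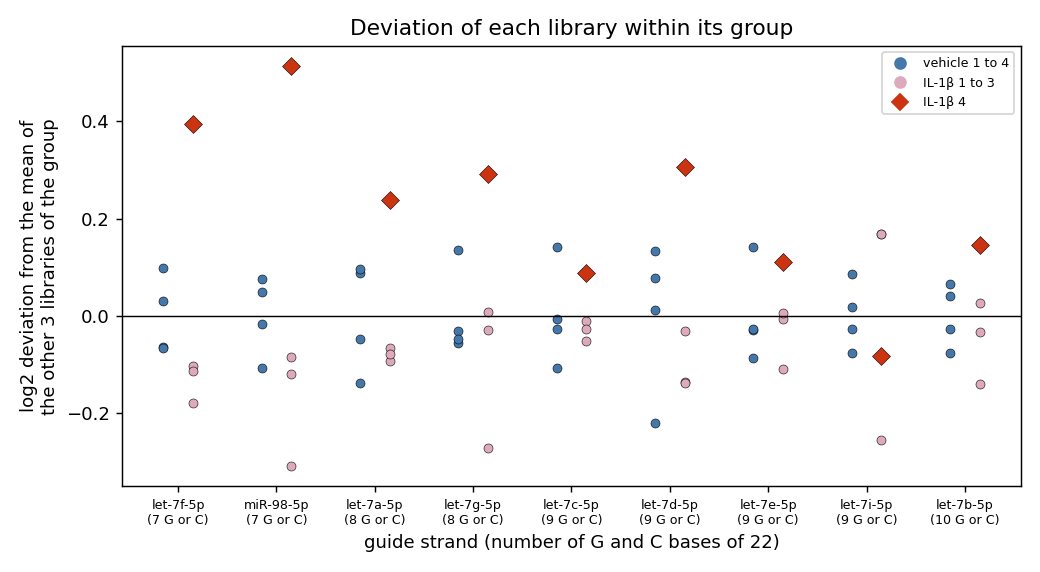
Log2 deviation of every library from its group mean taken over the 3 remaining libraries, for each guide strand ordered by its number of G and C bases, with vehicle in blue, IL-1β replicates 1 to 3 in pink and IL-1β replicate 4 as red diamonds. The diamonds run from 0.51 (miR-98-5p) and 0.39 (let-7f-5p) down to -0.08 (let-7i-5p).

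The passenger strands, the 3p arms of the same hairpins, are usually degraded when the guide strand is loaded into Argonaute. Of 12 listed, 10 passed the filter on low counts and 0 were called by edgeR, beside 1.95% of all tested miRNAs. DESeq2 also called 0, but gave an adjusted p for only 4 of the 10. There were 0 at an unadjusted edgeR p under 0.05 (63 of the 564 tested), and 5 log2 fold changes on either side of 0. A mean of at least 50 counts was reached by let-7d-3p, let-7b-3p and let-7e-3p. let-7b-3p averaged 905 ± 33.6 and 824 ± 59.5 normalized CPM with vehicle and IL-1β (SD, n = 4, log2FC -0.13, edgeR adjusted p = 0.668). let-7e-3p was at 127, 124, 134 and 125 with vehicle and at 104, 121, 120 and 113 with IL-1β. It was the single passenger strand, 1 of 10 tested, whose groups did not overlap, with all IL-1β libraries lower, beside 7.62% of all tested miRNAs. Its log2FC was -0.16 (SE 0.116, edgeR adjusted p = 0.740), which is no call. let-7i-3p averaged 37.8 ± 2.03 and 43.6 ± 7.41 (SD, n = 4, log2FC 0.20, edgeR adjusted p = 0.753). The other 6 tested strands had at most 24 counts in any library.

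The hairpin of let-7d had similar counts of both arms, with the 3p arm ahead of the 5p arm in 7 of 8 libraries. Its sequence (RefSeq, GRCm38.p6, chr13:48536012-48536114, minus strand) is shown with both mature arms in capitals, the 5p arm first.
let-7d hairpin: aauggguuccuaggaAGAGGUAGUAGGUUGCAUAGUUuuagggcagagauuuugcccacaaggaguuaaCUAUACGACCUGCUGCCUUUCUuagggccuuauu

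let-7d-3p was at 2036, 1974, 2069 and 2003 normalized CPM with vehicle and at 1996, 1858, 2234 and 1499 with IL-1β. IL-1β replicate 4 was the lowest library for this arm. For let-7d-5p it was the highest in normalized CPM but not with library totals alone. The 5p arm took 48.8%, 48.8%, 46.8% and 44.6% of the counts of both arms in the vehicle libraries and 45.5%, 48.7%, 42.7% and 58.3% in the IL-1β libraries. For IL-1β replicate 4 the 95% binomial interval (Wilson, counting error only) was 56.5% to 60.1% of 2871 counts, above the intervals of the other 7 libraries, which reached at most 50.4%. The intervals of vehicle replicates 1 and 2 and of IL-1β replicate 2 included 50%. The means were 47.2% ± 2.01 and 48.8% ± 6.80 (SD, n = 4), and the difference was within the spread between libraries. Without IL-1β replicate 4 the IL-1β mean was 45.6% ± 2.98 (SD, n = 3), below the vehicle mean. In the other hairpins with 1 locus the 5p arm prevailed, with a vehicle mean of 86.0% for let-7b, 88.6% for let-7e, 99.2% for miR-98, 99.4% for let-7i and 99.8% for let-7g.

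**Figure D5:**
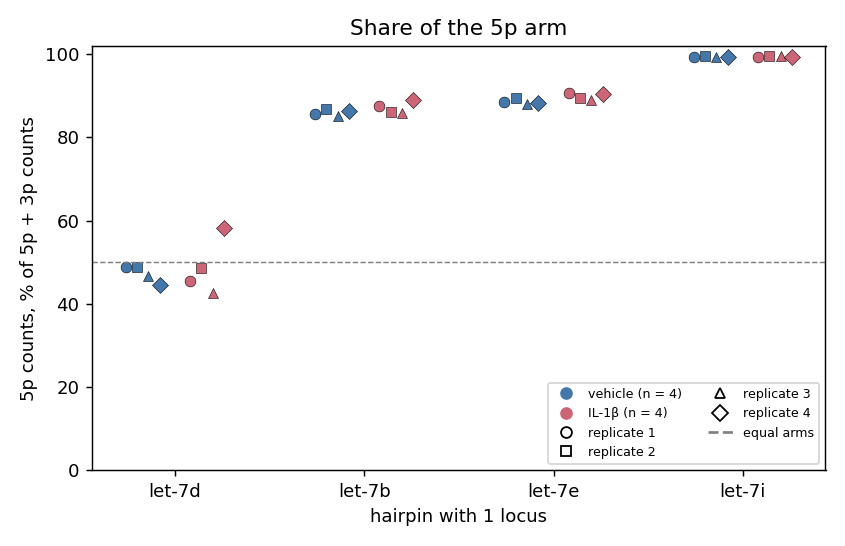
Counts of the 5p arm as a percentage of the counts of both arms, for the 4 hairpins with 1 locus and the most 3p counts, by library. let-7d lies between 42.7% and 48.8% in 7 libraries and at 58.3% in IL-1β replicate 4, and the other hairpins lie above 85.0%.

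Reads with no unique origin bear on the passenger strands. let-7a-1-3p and let-7c-2-3p have the same mature sequence, shown here with its seed in capitals.
let-7a-1-3p and let-7c-2-3p: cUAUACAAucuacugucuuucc

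Both had 0 counts in all 8 libraries, where the upper limit that 0 counts allow, 3 counts, amounted to 1.91 to 4.87 CPM. Of 1675 names with a RefSeq sequence, 9 shared their whole mature sequence with another name, and all 9 had 0 counts in every library, against 794 of the 1666 names with a sequence of their own. Whether reads with several origins were discarded was not given in the sources used here, so these 0 counts, and the upper limit drawn from them, may not bound the abundance of such strands. let-7a-5p, let-7c-5p and let-7f-5p, whose copies carry one name, were counted.

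Other miRNAs close to the family were scarce. let-7k (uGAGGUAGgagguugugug) also has the seed of the members, and it was at 8.23 ± 2.44 and 7.33 ± 1.80 normalized CPM with vehicle and IL-1β (SD, n = 4, edgeR adjusted p = 0.984). miR-1961 (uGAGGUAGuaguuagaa), with the same seed, had 0 counts in all libraries. let-7j (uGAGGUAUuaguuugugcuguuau), chosen after its values were seen, differs from the members at the last base of the seed. It averaged 54.3 ± 7.04 and 62.2 ± 12.8 normalized CPM (SD, n = 4, log2FC 0.17, edgeR adjusted p = 0.757).

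Several let-7 hairpins lie beside miRNAs of the miR-99/100 and miR-125 families, which are known to come from shared primary transcripts with let-7. Mir99a lay 657 bases from let-7c-1, Mir125a 368 bases from let-7e and Mir100 5212 bases from let-7a-2. Of the 5 listed partners, all were tested and 0 were called by edgeR or DESeq2, with 1 (miR-125b-5p) at an unadjusted edgeR p under 0.05 and a median log2 fold change of 0.12. Over all 564 tested miRNAs, 1.95% were called and 63 had such a p. miR-125b-5p, which also has more than one locus, was at 37463, 33982, 34061 and 38399 normalized CPM with vehicle and at 37476, 39422, 41063 and 58673 with IL-1β (log2FC 0.30, SE 0.113, edgeR adjusted p = 0.232). With no filter on low counts its edgeR adjusted p was 0.0163 at a log2FC of 0.27, short of the fold threshold, and the 15 alternatives gave adjusted p-values between 0.0163 and 0.518. miR-125a-5p was the single partner of 5 whose groups did not overlap (7.62% of all tested miRNAs), at 38508 to 42153 with vehicle and 42368 to 55034 with IL-1β (log2FC 0.17, edgeR adjusted p = 0.534). For miR-99a-5p, miR-99b-5p and miR-100-5p the log2 fold changes were 0.12, 0.01 and 0.12 (edgeR adjusted p = 0.780, 0.992 and 0.757). In each of the 5 partners IL-1β replicate 4 was the highest library, with log2 deviations of 0.64 for miR-99a-5p, 0.61 for miR-100-5p, 0.58 for miR-125b-5p, 0.37 for miR-125a-5p and 0.35 for miR-99b-5p. The let-7 strands of these same clusters deviated less there, by 0.09 (let-7c-5p), 0.11 (let-7e-5p) and 0.24 (let-7a-5p), with no test of the difference. Without that library the log2FC was 0.13 for miR-125b-5p, 0.07 for miR-125a-5p, -0.07 for miR-99a-5p, -0.08 for miR-99b-5p and -0.05 for miR-100-5p, so that the last 3 changed sign.

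The family total was last compared with single miRNAs over the 8 libraries. Among the 186 other tested miRNAs that averaged 50 counts or more, the closest profiles, by the root mean square difference of mean-centred log2 values, were those of miR-382-5p (0.0526), miR-92a-3p (0.0617), miR-181a-5p (0.0620), miR-411-5p (0.0632) and miR-320-3p (0.0709), against a median of 0.165. As this choice used the same libraries, their log2 fold changes, from -0.02 to 0.04, are a description.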

How the data were processed

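The authors deposited 1 table of raw counts per mature miRNA name for the 8 libraries, all of whose columns were matched to samples by name. According to the study's methods, reads were trimmed with cutadapt, aligned to mm10 with a GENCODE annotation by STAR and counted with featureCounts. The submitters' processing notes give STAR 2.4.2a, which is not the version named in the methods. Strand, the handling of multi-mapping reads and the source of the mature miRNA names were not given in the sources used here. A column of listed lengths, deposited by the authors in nt and summed over loci for some names, was used as a description. RUVseq correction was named in the methods. The deposited counts are integers whose totals differ between libraries, which does not tell whether they were corrected. They were taken as uncorrected.

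miRNAs over 1 CPM in at least 4 libraries were tested with edgeR 4.0.16 (quasi-likelihood, robust, two-sided, TMM, group as the only term; R 4.3.3), with Benjamini-Hochberg adjustment over all 564 tested. The standard error (SE) was the log2 fold change divided by the square root of F, and 95% intervals used the moderated degrees of freedom. Deviations and profiles used log2(normalized CPM + 1). The family total and arm shares are descriptions with no test. Alternatives were DESeq2 1.42.0, other scaling, filters, a replicate block, a factor of unwanted variation and leaving out each library. The fit was checked on simulated counts with the same dispersion for every miRNA and no library set apart as IL-1β replicate 4 was. The check therefore does not cover such a library. Named miRNAs were the members, passenger strands, cluster partners, others with the seed, and the 5 closest profiles, plus tissue markers and let-7j, which was chosen after its values were seen. The members and lists were chosen with earlier results of these data known. Whether replicate numbers pair the libraries was stated neither in the labels nor in the methods, so the main fit had no block. Low totals limit precision for scarce strands, and the Wilson intervals and the floors cover counting error only, whereas the edgeR intervals include the spread between libraries.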

Additional observations from a re-analysis of the deposited data

Results flagged for a closer look

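In 8 of 76 groups of 4 libraries examined, 1 library was separated from its neighbours by a gap beyond Dixon's limit for 4 values. Chance alone gives about 1 in 20, and the groups share libraries, so they are not independent. IL-1β replicate 4 was the distant library in 6 of the 8. There, let-7a-5p was at 5853 normalized CPM against 4930 to 4999, let-7f-5p at 5068 against 3762 to 3916, miR-99a-5p at 1513 against 935 to 1028, miR-99b-5p at 21514 against 16785 to 17048, miR-125a-5p at 55034 against 42368 to 42997, and miR-125b-5p at 58673 against 37476 to 41063. The other 2 were let-7g-5p in vehicle replicate 1, at 1023 against 926 to 938, and miR-320-3p in IL-1β replicate 3, at 5098 against 4840 to 4853.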

How the results depend on the processing

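No guide strand, passenger strand or cluster partner was called in the alternatives in which it was tested, which were 15 for each guide strand and partner and 10 to 15 for the passenger strands. The log2 ratio of the family total was 0.06, and ranged from 0.03 to 0.09 without each library in turn and from 0.03 (library totals only) to 0.09 (members with 1 hairpin locus) under the other settings, which included the sum with let-7j and let-7k, added after the data were seen. The number of calls over all miRNAs was 11. It was 19 with a replicate block and 18 with a factor of unwanted variation, and 6 to 19 without each library in turn (7 without vehicle replicate 2, 6 without vehicle replicate 4, 7 without IL-1β replicate 3 and 19 without IL-1β replicate 4). The cause was not tested. Deviations of same-numbered libraries had correlations of 0.17, -0.34, 0.10 and -0.18 over 195 miRNAs, which cannot settle whether the numbers pair the libraries. The replicate block called 0 of the 9 guide strands. Small log2 fold changes crossed 0. With library totals only and with no filter they were -0.015 and -0.0049 for let-7b-5p, -0.011 and -0.00093 for let-7c-5p, -0.020 and -0.0064 for miR-99b-5p, -0.020 and -0.0080 for miR-92a-3p, and -0.021 and -0.011 for miR-320-3p. let-7g-3p, with at most 4 counts a library, was at -0.045 with DESeq2, -0.16 with the block and -0.32 with the factor. Without each library in turn, the ranges were -0.021 to 0.064 for let-7a-5p, -0.024 to 0.030 for let-7b-5p, -0.022 to 0.051 for let-7c-5p, -0.093 to 0.019 for let-7d-5p, -0.019 to 0.069 for let-7e-5p, -0.50 to 1.47 for let-7a-2-3p, -0.19 to 0.0055 for let-7d-3p, -0.54 to 0.19 for let-7f-1-3p, -1.01 to 0.39 for let-7g-3p, -0.068 to 0.18 for miR-99a-5p, -0.081 to 0.040 for miR-99b-5p, -0.053 to 0.20 for miR-100-5p, -0.24 to 0.018 for let-7k, -0.022 to 0.062 for miR-382-5p, -0.024 to 0.024 for miR-92a-3p, -0.0079 to 0.054 for miR-181a-5p, -0.068 to 0.030 for miR-411-5p and -0.034 to 0.025 for miR-320-3p. Values that kept their sign but moved by over 1.5 times ran from -0.13 to -0.0067 for let-7g-5p, 0.02 to 0.17 for let-7f-5p, 0.13 to 0.25 for let-7i-5p, 0.03 to 0.24 for miR-98-5p, -0.20 to -0.088 for let-7b-3p, 0.089 to 0.68 for let-7c-1-3p, -0.82 to -0.10 for let-7f-2-3p, 0.11 to 0.26 for let-7i-3p, 0.26 to 1.08 for miR-98-3p, 0.10 to 0.28 for let-7j, 0.07 to 0.19 for miR-125a-5p and 0.13 to 0.36 for miR-125b-5p. The IL-1β mean of the let-7d 5p share, 48.8%, was 45.6% without IL-1β replicate 4, an alternative chosen after the data were seen, against 47.2% with vehicle.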
